A study of Mus musculus with 2 samples.

Results

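The 9 genes described here belong to the response of mammalian cells to low oxygen: Hif1a, Egln1, Egln3, Vegfa, P4ha1, Kdm3a, Bnip3, Bnip3l and Ndrg1. They were listed by name, with earlier results of these data known. All 9 were found among the 21216 gene rows of the count tables. The tables hold RNA counts of single mouse muscle stem cells, the resident stem cells of skeletal muscle, which were sorted into plate wells and copied with a modified CEL-Seq2 protocol that tags the end of each polyadenylated RNA with a well barcode and a short random tag (UMI). Of 457 wells, 456 were kept. The 121 galactose cells were cultured for 96 h with 10 mM galactose and the 120 low glucose cells for 96 h with 5 mM glucose, both on plate 2. The 113 high glucose cells were cultured for 96 h with 25 mM glucose on plate 1, beside 102 freshly isolated cells that the labels call quiescent and that had no culture. Every culture medium was DMEM that also held bFGF at 2.5 ng/ml, chick embryo extract at 0.05%, horse and fetal bovine serum at 10% each, pyruvate at 1 mM and antibiotics. The labels name neither an oxygen level nor a mouse strain, age or number of animals.

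Hypoxia-inducible factor (HIF) is a transcription factor made of an oxygen-regulated alpha subunit, such as the product of Hif1a, and the stable partner Arnt. In the presence of oxygen the prolyl hydroxylases Egln1 and Egln3 mark the alpha subunit, the Vhl ubiquitin ligase recognises the mark, and the protein is degraded. In low oxygen the alpha subunit accumulates and the pair binds short hypoxia response elements, raising genes of blood vessel growth, glucose use, collagen folding and mitochondrial removal, among them Egln1 and Egln3 themselves. The alpha subunit is set mainly at the protein level, so the mRNA of Hif1a is not a measure of HIF activity, and several HIF targets also answer to other signals.

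Ndrg1 was the member that separated freshly isolated, high glucose and low glucose cells most clearly. Its level per total RNA was 0.268 times as high in high glucose as in freshly isolated cells. It was 0.478 times as high in low glucose as in high glucose, where plate and medium cannot be told apart. The Ndrg1 plate rows of galactose and low glucose overlapped. P4ha1 and Vegfa were also lower in high glucose than in freshly isolated cells, at 0.344 and 0.558 times the level. Between galactose and low glucose, P4ha1 and Bnip3 were lower in galactose, at 0.553 and 0.583 times the level, and no member was higher past the limit used. Per spike-in RNA the difference between high glucose and freshly isolated cells was another: Ndrg1 was then 0.822 times as high, P4ha1 1.06 times and Vegfa 1.71 times as high in high glucose. Each condition was on 1 plate without a replicate, so none of these differences could be checked against replicates or tested.

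Counts of all kept wells of a condition were summed to a pool, which held 2035682 gene counts in galactose, 1734279 in low glucose, 887611 in high glucose and, at the shallow end, 284109 in freshly isolated cells. Median counts per cell were 14496, 13371, 6747 and 2536 in that order. Levels are depth-scaled counts (CPM, the counts of a gene relative to all gene counts of its pool), with exact Poisson 95% intervals that cover counting error only. Each condition filled 6 plate rows of its own, and the lowest, median and highest row are given as a view of the spread within a plate. These rows are parts of 1 library and not replicates, and row position and condition cannot be told apart. The 2 plates drew on a common set of well barcodes, and 200 of the 257 in use were on both, so a cell is named by plate and barcode. In freshly isolated cells 3 counts correspond to 10.6 CPM, so levels near that value rest on a handful of molecules.

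All 10 muscle stem cell markers looked up were detected in every condition, though Chrdl2 rested on 2 counts in low glucose. They summed to 2102 CPM in galactose, 2078 CPM in low glucose, 1950 CPM in high glucose and 6205 CPM in freshly isolated cells. Per 1000 spike-in counts the sums were close, at 109, 105, 117 and 122 in that order. In the same order Myod1 was at 871, 801, 705 and 2446 CPM and Sdc4 at 308, 344, 436 and 2094 CPM. Pax7 was at 66.3, 54.8, 56.3 and 120 CPM, but per 1000 spike-in counts at 3.44, 2.76, 3.39 and 2.35. Cd34 was instead lowest in freshly isolated cells, at 258, 287, 281 and 134 CPM, and Myf5 was at 366, 370, 286 and 394 CPM. Myod1 was thus highest in the cells that the labels call quiescent. By CPM the fibro-adipogenic, smooth muscle and pericyte, and endothelial markers summed highest in freshly isolated cells. The 6 fibro-adipogenic markers found summed to 31.4, 40.9, 143 and 1151 CPM in the same order, with Dcn at 0 in galactose, high glucose and freshly isolated cells. Most of each sum came from Col3a1, at 30.9, 38.1, 126 and 873 CPM. The 9 smooth muscle and pericyte markers summed to 63.4, 76.7, 232 and 651 CPM, and the 10 endothelial markers to 21.6, 18.5, 60.8 and 127 CPM. The 3 immune markers found summed to 8.84, 2.88, 9.01 and 3.52 CPM, and the 4 glial and 4 mature myofibre markers found to at most 31.7 CPM in any condition. Per 1000 spike-in counts, high glucose was above freshly isolated cells for the smooth muscle and pericyte sum (14.0 and 12.8) and the endothelial sum (3.66 and 2.49), and below for the fibro-adipogenic sum (8.62 and 22.6).

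Upstream sequences are shown first because HIF acts on its targets through a short DNA element. The windows are the 250 bases before each start site in RefSeq (build GRCm38.p6), and 7 of the 9 members had an entry: all but Ndrg1 and Bnip3l. Both strands were searched for ACGTG and GCGTG, which make up the core of the hypoxia response element (read as CACGT and as CACGC on the other strand). The palindrome CACGTG therefore holds 2 overlapping matches of ACGTG, 1 on each strand. With the upstream-most start of each gene, 6 of 7 members held a match to either motif. Among all 32851 promoters listed, alternative starts of a gene included, 38.6% did (16.6% held ACGTG and 28.2% GCGTG). The members were chosen as hypoxia-related genes with 1 start each, so these shares are not like for like and were not tested. Shown are P4ha1 and Bnip3, the members past 1.5-fold between galactose and low glucose, then Kdm3a, which lay just inside that limit, and Vegfa, a textbook HIF target whose ratio between these media was 1.03. All are written 5′ to 3′ on the strand of the gene, in lower case with each match to either motif in capitals. P4ha1 lies at chr10:59323046-59323295 (plus strand), Bnip3 at chr7:138909507-138909756 (minus strand), Kdm3a at chr6:71632918-71633167 (minus strand) and Vegfa at chr17:46032378-46032627 (minus strand).
P4ha1: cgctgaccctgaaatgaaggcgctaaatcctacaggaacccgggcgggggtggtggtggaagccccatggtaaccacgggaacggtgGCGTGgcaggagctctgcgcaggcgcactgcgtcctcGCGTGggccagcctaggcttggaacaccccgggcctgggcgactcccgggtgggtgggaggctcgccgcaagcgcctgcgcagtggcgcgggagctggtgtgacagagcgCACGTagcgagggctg
Bnip3: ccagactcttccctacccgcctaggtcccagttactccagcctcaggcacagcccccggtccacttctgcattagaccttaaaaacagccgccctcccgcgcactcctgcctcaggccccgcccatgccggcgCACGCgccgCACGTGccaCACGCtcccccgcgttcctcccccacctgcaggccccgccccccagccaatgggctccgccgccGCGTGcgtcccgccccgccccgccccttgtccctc
Kdm3a: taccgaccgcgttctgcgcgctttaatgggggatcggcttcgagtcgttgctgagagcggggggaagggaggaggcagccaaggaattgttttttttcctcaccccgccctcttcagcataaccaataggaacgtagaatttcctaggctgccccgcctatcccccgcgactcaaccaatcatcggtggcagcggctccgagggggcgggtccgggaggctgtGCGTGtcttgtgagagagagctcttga
Vegfa: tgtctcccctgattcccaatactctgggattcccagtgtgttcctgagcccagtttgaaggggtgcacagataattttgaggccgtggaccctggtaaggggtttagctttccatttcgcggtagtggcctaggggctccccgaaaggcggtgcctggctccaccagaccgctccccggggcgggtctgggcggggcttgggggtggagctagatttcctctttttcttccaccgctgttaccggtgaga

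P4ha1 held 1 ACGTG and 2 GCGTG, the nearest beginning 16 bases before the start. Bnip3 held 2 overlapping ACGTG and 3 GCGTG, the nearest beginning 35 bases before it. Kdm3a held 1 GCGTG, 27 bases before its upstream-most start, and none at the other 2 starts listed for it. The Vegfa window held none, whereas the window of a second listed start, at chr17:46025164-46025413, held 1 of each. On the minus strand that start lies downstream of the first, so its window is not sequence before the upstream-most start. Of the members not shown, Egln1 held 1 of each motif, Egln3 held 1 ACGTG and Hif1a held 3 ACGTG, of which 2 overlap. These matches describe letters in a window. Whether HIF was bound there was not measured.

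Hif1a, the oxygen-regulated subunit itself, was at 64.4 CPM (53.8 to 76.4) in galactose, 75.5 CPM (63.2 to 89.6) in low glucose, 65.3 CPM (49.6 to 84.5) in high glucose and 88.0 CPM (56.9 to 130) in freshly isolated cells. It rested on 131, 131, 58 and 25 counts in these conditions. No neighbours in the order of its levels were told apart by their counting intervals or by the plate rows.

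Among the oxygen sensors, Egln1, the main prolyl hydroxylase of HIF, was at 41.8 CPM (33.4 to 51.6) in galactose, 51.3 CPM (41.2 to 63.2) in low glucose, 39.4 CPM (27.5 to 54.8) in high glucose and 17.6 CPM (5.71 to 41.1) in freshly isolated cells. The freshly isolated level came from 5 counts, with 3 of the 6 plate rows at 0, and its interval reached into that of high glucose. Egln3, a hydroxylase known to be strongly raised by hypoxia, was at 13.3 CPM in galactose, 11.0 CPM in low glucose, 11.3 CPM in high glucose and 7.04 CPM in freshly isolated cells, on 27, 19, 10 and 2 counts. The freshly isolated value lies under the level of 3 counts, and the intervals of Egln3 overlapped in all 4 conditions.

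Vegfa encodes a secreted growth factor of blood vessels. It was at 191 CPM (172 to 211) in galactose, 186 CPM (166 to 207) in low glucose, 251 CPM (219 to 286) in high glucose and 451 CPM (376 to 536) in freshly isolated cells. Its plate rows ran from 125 to 287 CPM in galactose (median 177), from 122 to 209 CPM in low glucose (median 197), from 127 to 547 CPM in high glucose (median 241) and from 245 to 778 CPM in freshly isolated cells (median 443). By counting intervals the freshly isolated level was the highest and high glucose was above galactose, but the plate rows of these neighbours overlapped. A freshly isolated row at 245 CPM was below the upper high glucose rows, and the lower high glucose rows, from 127 CPM, were below the highest galactose row at 287 CPM.

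P4ha1 encodes the catalytic subunit of collagen prolyl 4-hydroxylase, which hydroxylates prolines in newly made collagen. It was at 24.6 CPM (18.2 to 32.4) in galactose, 44.4 CPM (35.0 to 55.5) in low glucose, 48.4 CPM (35.1 to 65.3) in high glucose and 141 CPM (101 to 192) in freshly isolated cells. The plate rows spanned 11.3 to 37.7 CPM in galactose (median 27.5), 26.1 to 73.2 CPM in low glucose (median 43.7), 24.2 to 84.8 CPM in high glucose (median 51.3) and 19.5 to 290 CPM in freshly isolated cells (median 150). Counting intervals set freshly isolated cells above high glucose and low glucose above galactose, while the row ranges overlapped at both steps.

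Kdm3a encodes a histone demethylase that removes methyl groups from lysine 9 of histone H3. It was at 46.2 CPM (37.3 to 56.5) in galactose, 69.2 CPM (57.4 to 82.7) in low glucose, 69.9 CPM (53.6 to 89.5) in high glucose and 88.0 CPM (56.9 to 130) in freshly isolated cells. Plate rows lay between 31.9 and 68.5 CPM in galactose (median 46.1), 44.0 and 89.2 CPM in low glucose (median 73.0), 50.7 and 125 CPM in high glucose (median 63.1) and 51.4 and 167 CPM in freshly isolated cells (median 74.0). Only the step between low glucose and galactose was apart by counting intervals, and its rows overlapped.

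Bnip3 and Bnip3l encode related proteins of the outer mitochondrial membrane that mark mitochondria for removal by autophagy. Bnip3 was at 19.2 CPM (13.6 to 26.2) in galactose, 32.9 CPM (24.9 to 42.6) in low glucose, 10.1 CPM (4.64 to 19.2) in high glucose and 28.2 CPM (12.2 to 55.5) in freshly isolated cells. On plate 1 it rested on 9 high glucose and 8 freshly isolated counts, and 2 and 3 of the 6 rows were at 0. Its plate rows ranged from 8.93 to 35.8 CPM in galactose (median 16.6) and from 16.6 to 56.6 CPM in low glucose (median 29.1), so the media overlapped. Bnip3l had a different order, with 159 CPM (142 to 177) in galactose, 167 CPM (148 to 187) in low glucose, 206 CPM (177 to 238) in high glucose and 144 CPM (104 to 196) in freshly isolated cells. None of the neighbouring levels of either gene was told apart.

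Ndrg1 encodes a cytoplasmic protein raised by hypoxia and other stress and in differentiating cells. Its level was 99.7 CPM (86.5 to 114) in galactose, 138 CPM (121 to 156) in low glucose, 288 CPM (254 to 326) in high glucose and 1077 CPM (960 to 1205) in freshly isolated cells. Its plate rows lay between 38.7 and 166 CPM in galactose (median 115), 104 and 175 CPM in low glucose (median 139), 222 and 424 CPM in high glucose (median 266) and 829 and 1313 CPM in freshly isolated cells (median 1093). Every freshly isolated row was above every high glucose row, and every high glucose row above every low glucose row. Among the 9 members these were the only neighbouring levels set apart by both the counting intervals and the plate rows.

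**Figure D1:**
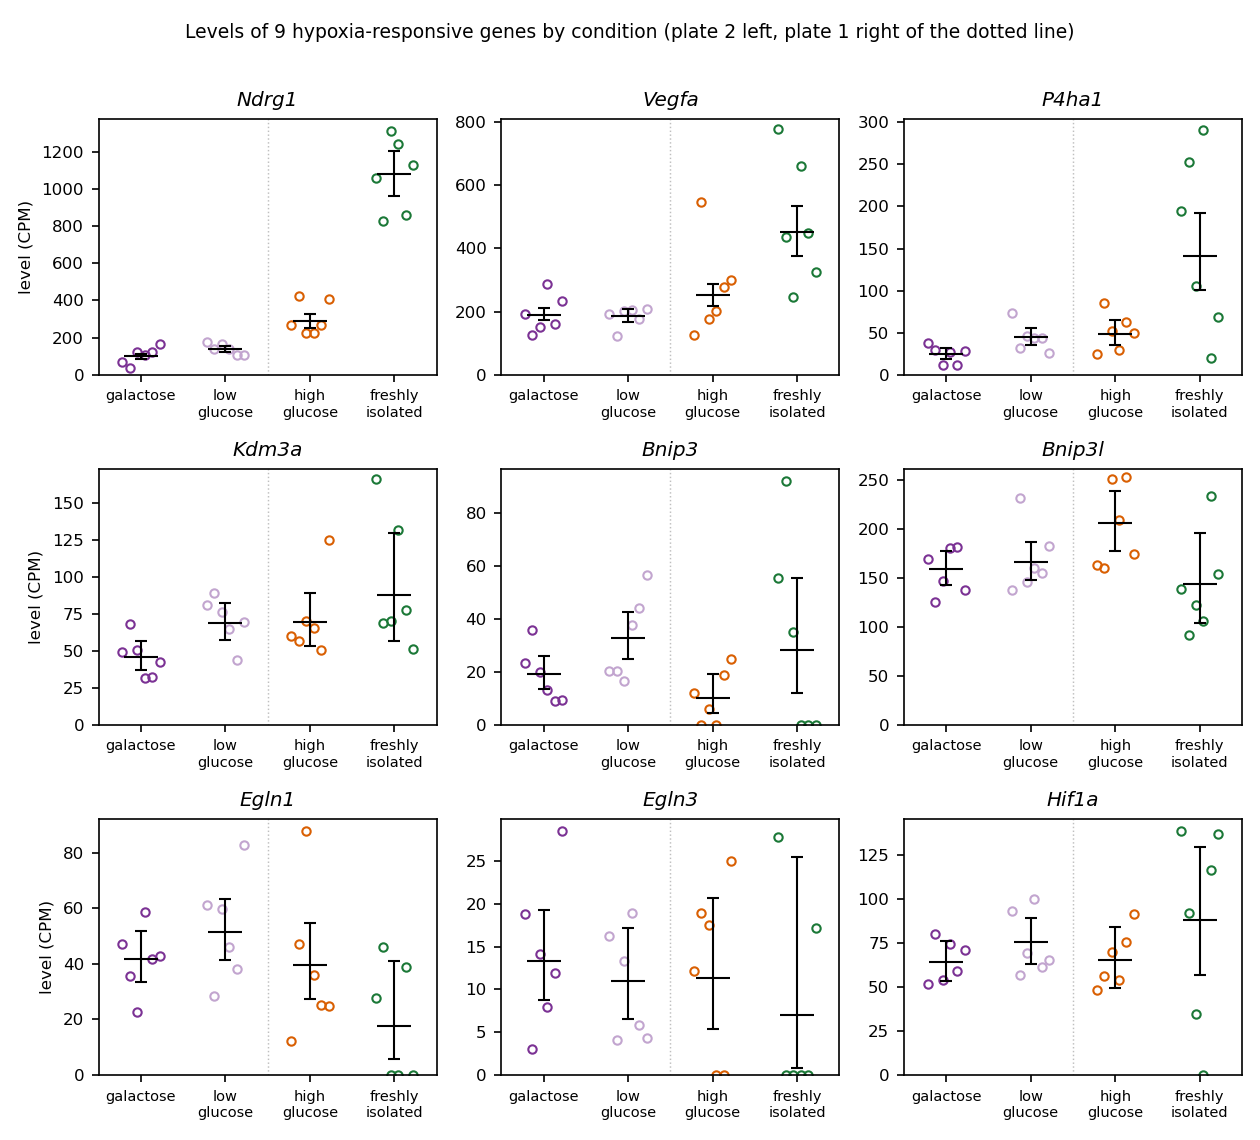
Level in CPM (vertical axis, from 0) of each of the 9 genes in the 4 conditions. Open circles are the 6 plate rows of a condition, and black bars are the pool of all its cells with the exact Poisson 95% interval. The freshly isolated rows of Ndrg1, 829 to 1313 CPM, lie above all others, while the groups overlap for most other genes.

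The first comparison set cells after 96 h in high glucose against freshly isolated cells on the same plate. A gene was called higher or lower where the CPM of the pools differed at least 1.5-fold, where the mean CPM of the pair of pools was at least 10, which 8 of the 9 members passed. Of these, 4 were lower in high glucose, Ndrg1, P4ha1, Vegfa and Bnip3, where 20.9% of 8882 genes were lower. Egln1 was the 1 member that was higher, where 40.9% of genes were. The median log2 ratio of (CPM + 1) was -0.63 over the 8 members and 0.34 over all genes, and 6 of the 8 members were below 0, against 36.0% of all genes. Since the members were a chosen list, these values describe it and were not tested.

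Ndrg1 had a ratio of 0.268 (exact conditional 95% interval 0.226 to 0.317), on 256 high glucose and 306 freshly isolated counts. P4ha1 had a ratio of 0.344 (0.218 to 0.543) on 43 and 40 counts, and Vegfa one of 0.558 (0.447 to 0.699) on 223 and 128 counts. These 3 intervals leave out 1. The interval of Bnip3, with a ratio of 0.360 (0.123 to 1.07), and that of Egln1, with 2.24 (0.874 to 7.33), hold it, so at this depth neither difference could be told from counting error. Requiring the interval to leave out 1 leaves 3 members lower, where 13.4% of genes were lower, and 0 higher, where 21.7% were. The Bnip3 ratio also rested on freshly isolated plate row B, without which it was 0.610.

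The remaining members lay within 1.5-fold. Bnip3l had a ratio of 1.43 (1.01 to 2.06), the nearest to the limit from inside, and Kdm3a and Hif1a had 0.794 (0.492 to 1.32) and 0.743 (0.457 to 1.24). Egln3 was below the CPM minimum, with 10 high glucose and 2 freshly isolated counts, and got no call. The paralogs Bnip3 and Bnip3l thus had ratios on opposite sides of 1, but the interval of Bnip3 reaches 1.07 and overlaps that of Bnip3l.

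The scaling decides part of this comparison. The high glucose pool held 60.2 gene counts per spike-in count and the freshly isolated pool 19.6, the spike-ins being synthetic RNAs present in each well, so that spike-in scaling multiplies every ratio by 3.07 (1.62 on the log2 scale). Per spike-in, Ndrg1 was still lower in high glucose, at 0.822 times the freshly isolated level (0.693 to 0.973), which is within 1.5-fold. P4ha1 and Bnip3 then had ratios of 1.06 (0.670 to 1.67) and 1.10 (0.378 to 3.29), and Vegfa had 1.71 (1.37 to 2.14). Kdm3a, Hif1a, Bnip3l and Egln1 were at 2.44, 2.28, 4.38 and 6.87 times the freshly isolated level, and the median of the 8 members was 0.97 on the log2 scale, below the 1.89 of all genes. Ndrg1 was the only member with a ratio below 1 under this scaling. Over all genes, 3631 were higher and 1853 lower in high glucose by CPM, 2846 and 2345 with TMM factors, 2737 and 2455 with median-of-ratios factors, and 7711 and 426 per spike-in. TMM and median-of-ratios factors put the median of all genes at 0.10 and 0.06, and 6 members were then lower, with Kdm3a and Hif1a joining the 4 above.

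Other RNAs moved with this comparison. Of the 12 dissociation stress genes past the minimum, such as the early response genes known to be raised while muscle is digested, 12 were lower in high glucose, and the 13 found summed to 2847 CPM in high glucose and 17293 CPM in freshly isolated cells, with Fos at 0 in high glucose. The fibro-adipogenic sum was 143 CPM in high glucose and 1151 CPM in freshly isolated cells, with 5 of 5 markers past the minimum lower. The part of the stress genes in the result was not tested. Without the 36 high glucose and 49 freshly isolated wells that held 2 or more markers of the same other cell type, a setting chosen after the data were seen, the ratios of Ndrg1, P4ha1, Vegfa and Bnip3 were 0.236, 0.328, 0.545 and 0.322.

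**Figure D2:**
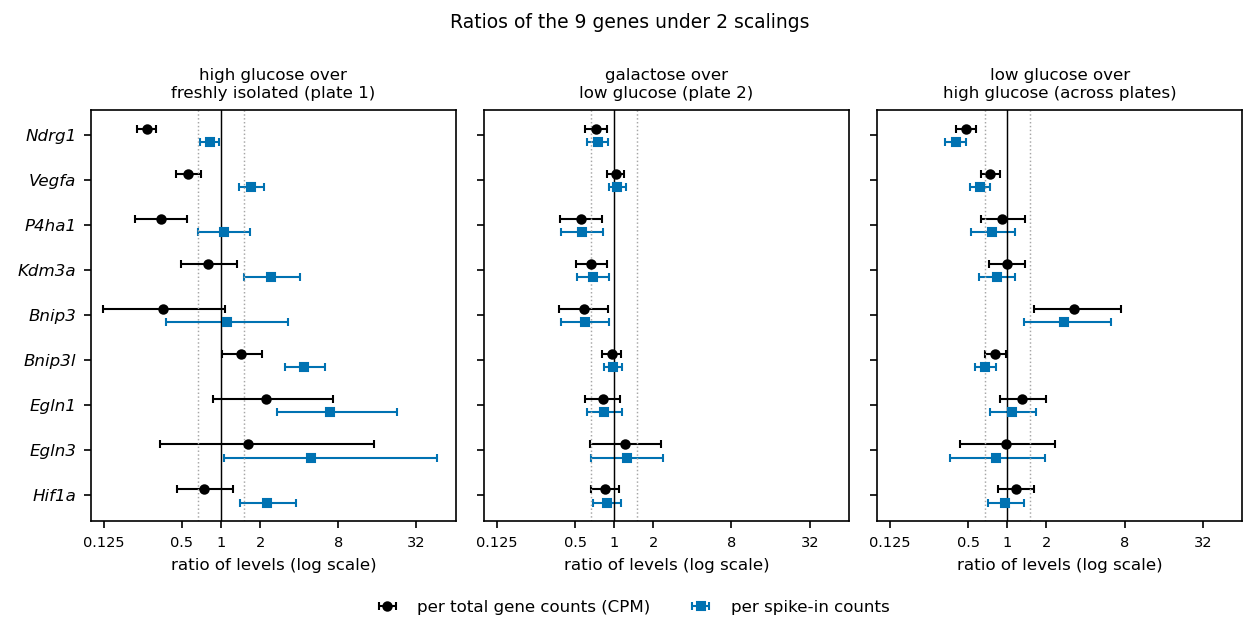
Ratio of pool levels on a log scale (horizontal axis) for each of the 9 genes in the 3 comparisons, by CPM (black circles) and per spike-in count (blue squares), with exact 95% counting intervals. Dotted lines mark 1.5-fold either way. On plate 1 the spike-in values lie 3.07 times to the right, and Ndrg1 alone stays left of 1; in galactose over low glucose the scalings nearly coincide.

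The second comparison set galactose against low glucose on plate 2, 2 media that differ in the sugar given to the cells. Of the 9 members, all past the minimum, 2 were lower in galactose past 1.5-fold, P4ha1 and Bnip3, where 2.65% of 8689 genes were lower, and 0 were higher, where 3.23% were. P4ha1 had a ratio of 0.553 (0.380 to 0.800), on 50 counts in galactose and 77 in low glucose. Bnip3 had a ratio of 0.583 (0.378 to 0.891), on 39 and 57 counts. Both intervals leave out 1, and 1.25% of all genes were lower past 1.5-fold with such an interval. Kdm3a, with 94 and 120 counts and a ratio of 0.667 (0.504 to 0.882), lay just inside the limit.

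The other members were nearer to 1. Ndrg1 had a ratio of 0.724 (0.597 to 0.876), whose interval also leaves out 1. Egln1 was at 0.814 (0.597 to 1.11), Hif1a at 0.852 (0.664 to 1.09) and Bnip3l at 0.955 (0.813 to 1.12). Vegfa, at 1.03 (0.883 to 1.19), and Egln3, at 1.21 (0.649 to 2.30), were the 2 members above 1. In all, 7 of the 9 members were below 0 on the log2 scale, where 47.7% of all genes were, and their median was -0.29 against 0.01 over all genes.

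Spike-in scaling multiplies each ratio of this comparison by only 1.03, and P4ha1 and Bnip3 were then at 0.570 (0.391 to 0.824) and 0.600 (0.389 to 0.918). With median-of-ratios factors Kdm3a, at 0.660, was also past the limit. Over all genes, 281 were higher and 230 lower by CPM, and 346 and 186 per spike-in. The call of Bnip3 depended on the wells: without the 17 galactose and 13 low glucose wells that held 2 or more markers of another cell type its ratio was 0.737, inside the limit, while P4ha1 was at 0.512. With equal weight per cell, Kdm3a at 0.616 and Ndrg1 at 0.621 were also past the limit. Thinned to 1000 counts per cell, on fewer counts, Kdm3a was at 0.298, Ndrg1 at 1.08 and Bnip3l at 1.65. The marker sums of other cell types were close in both media, at 31.4 CPM in galactose and 40.9 CPM in low glucose for fibro-adipogenic cells and 63.4 and 76.7 CPM for smooth muscle and pericytes, as were the dissociation stress sums, at 1801 and 1812 CPM.

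The third comparison set low glucose on plate 2 against high glucose on plate 1, so that glucose and plate cannot be told apart. All 9 members passed the minimum. Ndrg1 was lower in low glucose, at 0.478 (0.399 to 0.572), where 15.9% of 8852 genes were lower, and Bnip3 was higher, at 3.24 (1.59 to 7.45), where 12% were higher. The Bnip3 value set 57 low glucose counts against 9 high glucose counts. Both intervals leave out 1, and with such an interval 10.7% of genes were lower and 7.98% higher. Vegfa and Bnip3l were within 1.5-fold, at 0.739 (0.621 to 0.881) and 0.808 (0.669 to 0.978), with intervals that leave out 1. The remaining ratios were 0.916 for P4ha1, 0.991 for Kdm3a, 0.972 for Egln3, 1.16 for Hif1a and 1.30 for Egln1, and the median of the members was -0.04 against -0.03 over all genes. Other RNAs moved here too: 10 of 12 dissociation stress genes past the minimum were lower in low glucose, and the 13 found summed to 1812 CPM in low glucose and 2847 CPM in high glucose. The smooth muscle and pericyte sum was 76.7 CPM in low glucose and 232 CPM in high glucose, with 3 of 3 markers past the minimum lower. Their part in the Ndrg1 value was not tested. Spike-in scaling multiplies these ratios by 0.836, which left Ndrg1 at 0.400 and Bnip3 at 2.71 and put Vegfa past the limit at 0.618. Over all genes, 1059 were higher and 1406 lower by CPM, 1419 and 1084 with TMM factors and 463 and 2558 per spike-in. Leaving out single plate rows added a call: Vegfa became lower without high glucose row G, and Egln1 higher without high glucose row I.

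The comparisons with freshly isolated cells and with low glucose share the high glucose pool. For Ndrg1 the ratios were 0.268 in high glucose over freshly isolated cells and 0.478 in low glucose over high glucose. For Bnip3 they were 0.360 and 3.24, both resting on the 9 high glucose counts.

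Cell by cell, counts were thinned to 1000 per cell, which left out 1 high glucose cell, so that depth did not set the shares of cells with a count. Ndrg1 was then detected in 12 of 121 galactose cells (9.92%, exact binomial 95% interval 5.23 to 16.7), 9 of 120 low glucose cells (7.50%, 3.49 to 13.8), 35 of 112 high glucose cells (31.3%, 22.8 to 40.7) and 58 of 102 freshly isolated cells (56.9%, 46.7 to 66.6). Thinned to 500 counts the shares were 3.31%, 8.33%, 15.9% and 34.3% in the same order, thinned to 2000 counts 20.0%, 25.8%, 45.4% and 76.8%, and without thinning 67.8%, 68.3%, 75.2% and 85.3%. Galactose and low glucose changed order between these depths and their intervals overlapped, so no order is read between them. Thinned to 1000 counts, the intervals of high glucose and freshly isolated cells did not overlap, but the cells are not replicates of a condition. A share at a fixed depth follows the level, so it is no separate result on how many cells express Ndrg1.

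Vegfa was detected in 11.6% (6.47 to 18.7) of galactose, 15.8% (9.81 to 23.6) of low glucose, 19.6% (12.7 to 28.2) of high glucose and 34.3% (25.2 to 44.4) of freshly isolated cells after thinning. Thinned to 2000 counts the shares were 39.2% in galactose, 29.2% in low glucose and 35.2% in high glucose, beside 41 of 82 freshly isolated cells, so the order of the 3 cultured conditions was not kept. Without thinning the shares of the 4 conditions were 77.7%, 80.0%, 69.0% and 59.8%, with freshly isolated cells lowest. For the other 7 members thinned shares were at most 19.8% in any condition. At this depth Bnip3 was seen in 0 of 121 galactose cells, which allows up to 2.48% of cells with a count among 1000 drawn, and Egln3 in 0 of 120 low glucose cells, which allows up to 2.50%. These limits do not bear on how many cells express the genes: without thinning Bnip3 was seen in 26.4% of galactose and Egln3 in 14.2% of low glucose cells.

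How many members were seen together in a cell followed the depth. Without thinning the median number of members with a count was 5 of 9 in galactose and in low glucose, 3 in high glucose and, for freshly isolated cells, 2, and up to 9 were seen in a single galactose or low glucose cell. After thinning to 1000 counts, none of the 9 was detected in 56.2% of galactose, 54.2% of low glucose, 37.5% of high glucose and 21.6% of freshly isolated cells, and 3 or more were detected in 2.48%, 4.17%, 5.36% and 13.7%. Across cells of a condition, the correlations of thinned levels between Ndrg1, Vegfa, Bnip3l and P4ha1 ran from -0.11 to 0.38, over 102 to 121 cells that share a library. In counts this sparse such values are a description: the highest, between Ndrg1 and P4ha1 in low glucose, had 2 cells with a count of both genes.

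**Figure D3:**
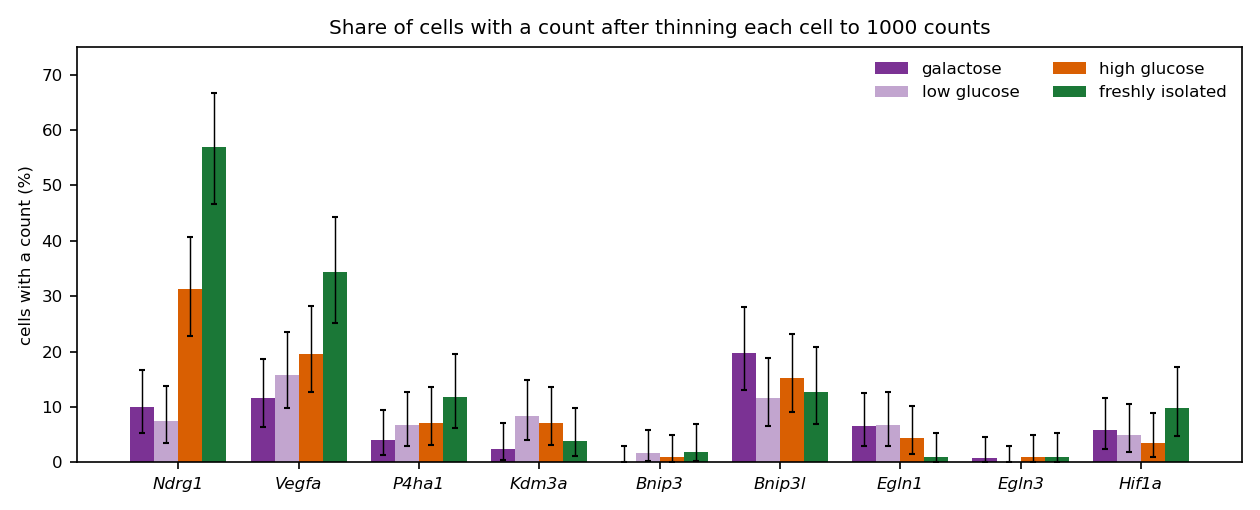
Share of cells with a count of each gene (percent, vertical axis from 0) after thinning every cell to 1000 counts, with exact binomial 95% intervals. Ndrg1 stands at 9.92%, 7.50%, 31.3% and 56.9% in galactose, low glucose, high glucose and freshly isolated cells, and Vegfa is highest in freshly isolated cells.

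Other genes of the pathway were read from named lists, with the same limit of 1.5-fold. Of the HIF machinery (subunits, sensors, cofactors and the degradation complex), 21 of 22 genes could be looked up and 18 passed the minimum in high glucose over freshly isolated cells, of which 7 were higher, 3 lower and 8 neither (median 0.14 against 0.34 over all genes), where 40.9% of all genes were higher and 20.9% lower. Epas1, the other alpha subunit, was lower, at 7.89 CPM in high glucose and 45.8 CPM in freshly isolated cells (ratio 0.172, 0.0582 to 0.465), on 7 and 13 counts. Egln2, another hydroxylase of the family, was higher, at 22.5 and 7.04 CPM, but on 20 and 2 counts with an interval of 0.778 to 28.2. The chaperone Hsp90ab1 was at 2909 CPM in high glucose and 3991 CPM in freshly isolated cells (0.729, 0.679 to 0.782). Rack1, a ribosome-bound scaffold that competes with that chaperone for the alpha subunit, was higher, at 2170 and 1345 CPM (1.61, 1.45 to 1.81).

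Of 45 other HIF targets, 38 could be looked up and 26 passed the minimum, with 6 higher, 11 lower and 9 neither in high glucose (median -0.37 against 0.34 over all genes, of which 40.9% were higher and 20.9% lower). Hmox1, which breaks down haem, was lower, at 1653 CPM in high glucose and 2914 CPM in freshly isolated cells (0.567, 0.520 to 0.618). Lox, which cross-links collagen, was lower, at 12.4 and 176 CPM (0.0704, 0.0331 to 0.137), and so was the chemokine receptor Cxcr4, at 5.63 and 73.9 CPM (0.0762, 0.0225 to 0.208). Tfrc, the transferrin receptor, was higher, at 269 and 144 CPM (1.87, 1.34 to 2.67). Lox is also a product of fibroblasts. The fibro-adipogenic sum was 143 CPM in high glucose and 1151 CPM in freshly isolated cells. Of these sums Col3a1 made up 126 and 873 CPM, and Dpt 4.51 and 201 CPM. The part of fibroblast RNA in the Lox value was not tested.

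Of 24 glycolytic HIF targets, 21 could be looked up and 14 passed the minimum, with 4 higher, 4 lower and 6 neither in high glucose (median 0.18), beside the same 40.9% and 20.9% over all genes. Pkm, pyruvate kinase, was at 2872 CPM in high glucose and 2647 CPM in freshly isolated cells (1.08, 1.00 to 1.18), and Eno1, enolase, at 1123 and 834 CPM (1.35, 1.17 to 1.56). The lactate exporter Slc16a3 was lower, with 1 high glucose count against 19 freshly isolated counts (ratio 0.0168, 0.000405 to 0.106), and the glucose transporter Slc2a3 was lower at 11.3 and 59.8 CPM (0.188, 0.0770 to 0.435). With spike-in scaling the medians of all 3 lists were above 0, at 1.74, 1.21 and 1.79 in the order given here.

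Among relatives of the members, the VEGF family and its receptors had 4 of 8 found genes past the minimum, 2 higher and 2 lower in high glucose, beside 40.9% and 20.9% of all genes. Vegfb, a related ligand, was higher, with 44 high glucose counts against 1 freshly isolated count (ratio 14.1, 2.40 to 569), as was Vegfc, a ligand of lymphatic vessels, with 27 against 5 counts (1.73, 0.656 to 5.75). Flt1, a VEGF receptor of endothelial cells, was lower, with 3 against 7 counts (0.137, 0.0229 to 0.601). Of the NDRG, P4H and BNIP relatives, 9 of 12 found genes passed the minimum, 4 higher, 3 lower and 2 neither, where 40.9% of all genes were higher and 20.9% lower. P4hb, the partner subunit of P4ha1, was higher in high glucose, at 288 and 183 CPM (1.58, 1.17 to 2.17), unlike P4ha1 itself. Bnip2 was at 127 and 49.3 CPM (2.58, 1.48 to 4.88), Bnip1 at 23.7 and 7.04 CPM (3.36, 0.822 to 29.6) and Ndrg2 at 32.7 and 127 CPM (0.258, 0.153 to 0.432). Per spike-in the medians of these last lists were 0.81 and 1.97, and Hmox1 turned to 1.74 times the freshly isolated level, whereas Lox (0.216), Cxcr4 (0.234), Epas1 (0.529), Slc16a3 (0.0517), Slc2a3 (0.578), Flt1 (0.421) and Ndrg2 (0.791) stayed below 1.

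In galactose over low glucose, 1 gene of these lists was past the limit: Vhl, which recognises hydroxylated HIF, was higher, with 53 counts in galactose and 27 in low glucose (1.67, 1.03 to 2.77), where 3.23% of all genes were higher. It was named after its value was seen. The other 17 HIF machinery genes, all 26 other HIF targets, all 12 glycolytic targets, all 3 VEGF family genes and all 9 relatives past the minimum were neither higher nor lower. The medians were 0.03, -0.06, 0.06, -0.28 and -0.06 against 0.01 over all genes. In low glucose over high glucose, 0 higher and 1 lower of 17 HIF machinery genes, 3 higher and 2 lower of 26 other targets, 1 higher and 0 lower of 13 glycolytic targets, 0 of 2 VEGF family genes and 0 higher and 4 lower of 9 relatives were past the limit, where 12% of all genes were higher and 15.9% lower.

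**Figure D4:**
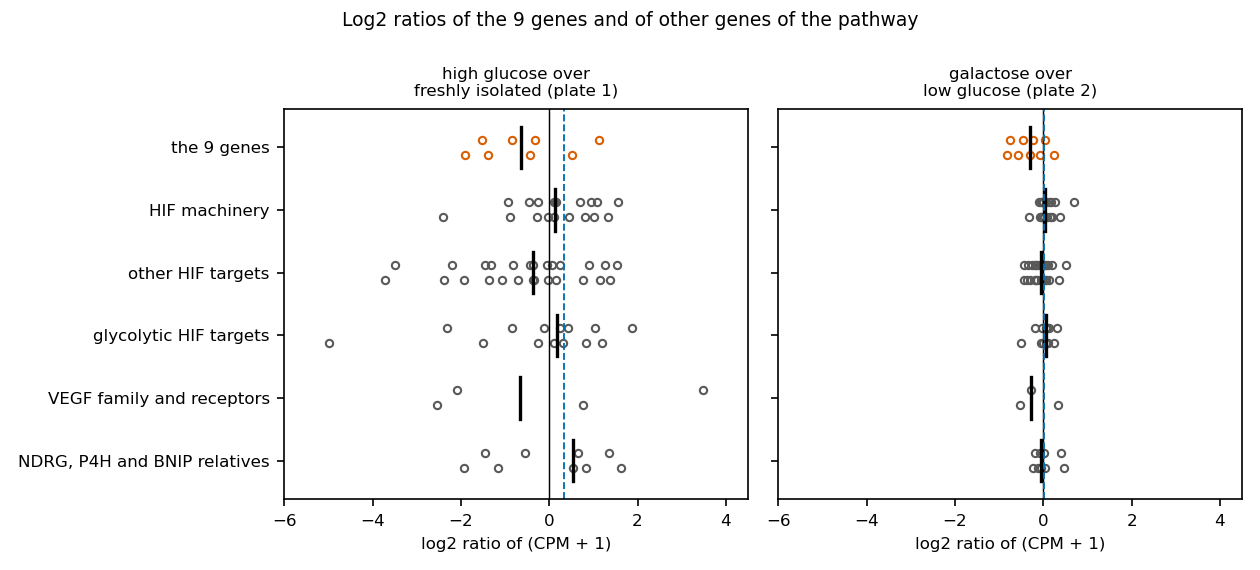
Log2 ratio of (CPM + 1) for the 9 genes and the other pathway genes past the CPM minimum (open circles), in high glucose over freshly isolated cells and in galactose over low glucose. Black bars are list medians and the dashed line is the median of all genes, 0.34 and 0.01. The lists spread over several log2 units on plate 1 and lie close to 0 on plate 2.

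Genes with a pattern most like each member were found among 3957 genes with a mean of at least 50 CPM over the 4 conditions, by the root mean square difference of log2 (CPM + 1), each gene centred on its own mean over the conditions. Nearest to Ndrg1 was Kdm7a, a histone demethylase (difference 0.03), at 26.5 CPM in galactose, 36.9 CPM in low glucose, 80.0 CPM in high glucose and 285 CPM in freshly isolated cells, followed by Dnajb9 and Syne2 (0.17 and 0.20). Nearest to Vegfa were Ubn2 (0.02), Clock (0.03) and H3f3a (0.04), and nearest to Hif1a were Sbf2, Antxr2 and Taok1 (0.03, 0.03 and 0.04). Bnip3l was nearest to Phf20, Otud7b and Hars (0.02, 0.03 and 0.03). For P4ha1 these were Gm11407, Ube2h and Ulk1 (0.18, 0.18 and 0.21), and for Kdm3a Gm13498, Sertad1 and Ubxn4 (0.04, 0.09 and 0.09). With 4 conditions and 3957 genes, close neighbours exist for many patterns, and nothing is read from them. Reads of predicted genes such as Gm11407 and Gm13498 may be shared with near-identical copies, and their values are uncertain. Genes overlapping the members in the annotation held at most 2 counts each over all wells, so the split of reads between them and the members concerns few counts, though the use of strand in counting is not stated.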

How the data were processed

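The deposited tables hold raw counts per gene and well that the authors had not normalised, as whole numbers with different totals per well. A deposited well sheet gave the plate and condition of each of 457 wells. Per the labels, the UMI took bases 1 to 6 and the barcode bases 7 to 14 of the first read. The sources at hand do not state the aligner, the annotation, the genome build or any collapsing by UMI. The largest single value was 1564, and 6 bases give 4096 tags. Per the submitters' processing notes edgeR was used, with no version or role named.

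Wells with at least 500 gene counts and 250 genes were kept, which dropped 1 high glucose well with 8 counts. No doublet caller was run. Spike-ins were left out of totals. Of 21216 gene rows, 21132 (99.6%) had a symbol, and the others held 0.211% of counts. Counts were summed per condition (each on 1 plate) and scaled to CPM, with median depths of 14496, 13371, 6747 and 2536 counts per cell in galactose, low glucose, high glucose and freshly isolated cells. Ratios carry exact conditional 95% intervals for counting error only, and log2 ratios a pseudocount of 1 CPM. Where both pools held 3 counts or fewer no fold was given. All 9 members were named, and from each further list 2 genes by total counts and 2 by the farthest ratio within a plate. The members and lists were chosen with earlier results of these data known. Other settings were TMM factors (edgeR 4.0.16 in R 4.3.3), median-of-ratios factors, spike-in scaling, a total without mitochondrial genes, equal weight per cell, other minimums per well and per gene, a pseudocount of 10 CPM, thinning, an interval rule, leaving out each plate row and leaving out the top well of each gene. A setting without wells that held markers of other cell types was added after the data were seen. Steps used Python 3.11.15 with scipy 1.17.1 and were tested on simulated data.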

Additional observations from a re-analysis of the deposited data

How the results depend on the processing

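No result has a replicate, so stability here covers settings only. Over the settings other than left-out plate rows, 93 of the 108 recomputed counts and medians of the 9 genes were taken as unchanged. Counts were so taken if they moved at most 1.5 times, and medians if they stayed within the counting interval of the middle genes. For high glucose over freshly isolated cells, the number of members higher was 5 with spike-in scaling, 2 with equal weight per cell, 0 with a mean of at least 50 CPM, 2 with no filter on low values and 0 where the counting interval had to leave out 1, against 1 as reported. Of 8882 genes, 7711, 3529 and 1927 were higher with spike-in scaling, equal weight per cell and that interval rule, against 3631 as reported. The number was 1304 with at least 50 CPM and 8867 with no filter. With spike-in scaling the number of members lower was 0, where 426 of 8882 genes were lower. The median log2 ratio of the members was then 0.97, below the 1.89 of all genes. P4ha1, Vegfa and Bnip3 turned to ratios of 1.06, 1.71 and 1.10, which follows from the 3.07-fold factor. With equal weight per cell P4ha1, Ndrg1 and Bnip3 stayed lower past the limit, and Vegfa did not. For galactose over low glucose, the number of members lower was 4 with equal weight per cell, 0 with at least 50 CPM and 1 without wells holding markers of another cell type, against 2, and 1 was higher after thinning. Among all genes 373 were lower with equal weight per cell and 7 with at least 50 CPM, against 230 of 8689. After thinning 2012 were higher, against 281. For low glucose over high glucose, 2 members were lower with spike-in scaling, equal weight per cell or thinning, against 1, and 0 were higher with at least 50 CPM. Among all genes 2558, 1441 and 2469 were lower in these settings, against 1406 of 8852, and 359 were higher with at least 50 CPM. The settings of 50 CPM remove low genes, and for the others the cause was not tested.

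Leaving out 1 plate row at a time, the number lower was 4 to 5 and the number higher 1 to 2 for high glucose over freshly isolated cells (median -0.74 to -0.37). They were 2 to 3 and 0 to 1 for galactose over low glucose (median -0.43 to -0.18), and 1 to 2 and 1 to 2 for low glucose over high glucose (median -0.24 to 0.17). Among all genes, 1841 to 1919 were lower and 3598 to 3687 higher for high glucose over freshly isolated cells. These numbers were 224 to 302 and 297 to 353 for galactose over low glucose. For low glucose over high glucose they were 1400 to 1522 and 1072 to 1157. The second member higher on plate 1 was Bnip3l without freshly isolated row E and Egln3 without high glucose row J or K. In galactose Egln3 was higher without low glucose row D, and Kdm3a was lower without any of 5 rows.

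Over all genes, counts past 1.5-fold, higher then lower, moved over 1.5 times as follows. With spike-in scaling they were 7711 and 426 for high glucose over freshly isolated cells and 463 and 2558 for low glucose over high glucose. With at least 50 CPM they were 1304 and 775 for high glucose over freshly isolated cells, 5 and 7 for galactose over low glucose and 359 and 385 for low glucose over high glucose. With no filter they were 8867 and 4524, 3747 and 3607, and 4856 and 5851. Thinning gave 2012 and 2175 for galactose over low glucose and 2276 and 2469 for low glucose over high glucose, and the interval rule gave 1927 and 1186, then 133 and 109, for the within-plate comparisons. Equal weight per cell gave 433 and 373 for galactose over low glucose. Shares of cells follow depth: without thinning 33 of 36 moved out of their interval, and 17 and 20 did when thinned to 500 and 2000 counts. Depth limits Bnip3, Egln1 and Egln3 on plate 1 most. No paired analysis was possible because each condition is on 1 plate without a replicate, and no test was run.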

Other observations

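The integrated stress response, a program that is known to raise Vegfa and other genes apart from oxygen, was looked up as a list of 10 genes. It summed to 2191 CPM in galactose, 2216 CPM in low glucose, 1980 CPM in high glucose and 2140 CPM in freshly isolated cells. Of its 9 genes past the minimum, 3 were higher, 2 lower and 4 neither in high glucose over freshly isolated cells, where 40.9% of all genes were higher and 20.9% lower, and 9 of 9 were neither in galactose over low glucose. Its part in the Vegfa values was not tested.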
